A study of Arabidopsis thaliana with 6 samples.

Results

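The type-A Arabidopsis response regulators (type-A ARRs) form a family of 10 genes, and all 10 were found by their locus identifiers among the 39351 features of a single RNA immunoprecipitation sequencing (RIP-seq) table. The family was selected on measured values of the control immunoprecipitate, which 1 member, AT2G41310, leads, so the control values below are a description and carry no test. AT2G41310 is named RR3 in RefSeq and ARR8 in the usual numbering of the family, and it is a different gene from ARR3 (AT1G59940). The RIP libraries (n = 2) hold the RNA recovered with an anti-HA antibody, the Mock libraries (n = 2) the RNA recovered with mouse IgG as the negative control, and the Input libraries (n = 2) the RNA of the lysate from which both were made. All 6 libraries came from Arabidopsis thaliana plantlets of an nsra mutant that carried pNSRa:NSRa-HA, a construct in which the promoter of the nuclear speckle protein NSRa drives NSRa with an HA tag. All plantlets had received the synthetic auxin NAA for 24 h and UV light, which crosslinks proteins to RNA. The labels disagree on the NAA dose, given as 100 nM or as 1 µM, and on the age, given as 10, 14 or 15 days, and these differences could not be settled here. They call the immunoprecipitation a duplicate without naming separate cultures, so the p-values below measure only the spread between these libraries, which may be technical.

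Cytokinin is a plant hormone read by a relay of phosphate transfers. Histidine kinase receptors pass phosphate to small phosphotransfer proteins, which pass it to type-B ARRs, transcription factors that switch on cytokinin response genes. The type-A ARRs are among those genes, and their short proteins lack the DNA-binding output domain of the type-B ARRs and dampen the response that induced them. Auxin and cytokinin act against each other in root development, and type-A ARRs are one of the points where the responses to both hormones meet.

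The recovered depth set how much could be seen. The RIP libraries held 1599137 and 977231 reads, the Mock libraries 197923 and 154149, and the Input libraries 27495004 and 25274634. A count of 0 allows up to 3 reads, which is 1.88 and 3.07 CPM (reads per 1000000 reads of the library) in the RIP libraries, 15.2 and 19.5 CPM in the Mock libraries, and 0.109 and 0.119 CPM in the Input libraries. Intervals and floors of this kind cover counting error only, since copies of 1 molecule cannot be told from separate molecules in these reads.

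RR3 lies on the plus strand of chromosome 2 at 17221840 to 17224880 (TAIR10.1, positions counted from 1). Its 6 exons join to 2370 bases, the longest exon model of the family, in which ARR17 has the shortest with 618. The coding sequence covers exon bases 441 to 1118 and ends in exon 5, so the whole of exon 6, with its 902 bases, follows the stop codon. Exon 6 carries a sequence that was found in none of the other 9 members. Over exon bases 1905 to 2318, a stretch of 414 bases, it aligned with 9 other loci of the genome at 69.6 to 81.1% identity (blastn, E-value under 1e-5, at least 100 bases aligned). Of these 9 loci, 5 overlap gene models, introns included, on the same strand as the match: AT4G04565, AT4G04595, AT2G31141, AT1G49700 and AT1G05163. The strand opposite to 3 further gene models matched too, and 1 locus on chromosome 5 overlapped no gene of the table. One of the 3 is AT7SL-1 (AT4G02970), which RefSeq describes as signal recognition particle and as a gene of RNA polymerase III. The RNA of that particle, 7SL RNA, is the scaffold on which the particle forms, and the particle guides ribosomes to the endoplasmic reticulum.

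The 28 bases shown are the best conserved over the 6 sequences listed here, which are a selection of the loci similar to the stretch. AT1G49700, whose match of 81.1% identity was the closest, is not among them. Whether this window has a part in the level of any gene was not tested. Capitals mark the 26 bases that are identical in all 6 sequences. The RR3 window is chr2:17224693-17224720, exon bases 2183 to 2210, and each sequence is read 5′ to 3′ on its matching strand in TAIR10.1.

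RR3: cGCGTGAGGCTGGtTTCACAGAGCAGCG

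AT1G05163: tGCGTGAGGCTGGtTTCACAGAGCAGCG

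AT2G31141: tGCGTGAGGCTGGtTTCACAGAGCAGCG

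AT4G04565: tGCGTGAGGCTGGtTTCACAGAGCAGCG

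AT4G04595: tGCGTGAGGCTGGtTTCACAGAGCAGCG

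AT7SL-1 locus: tGCGTGAGGCTGGcTTCACAGAGCAGCG

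The windows of the other 5 loci are chr1:5297972-5297999 (minus strand), chr2:13271954-13271981 (minus strand), chr4:1472908-1472935 (plus strand), chr4:1476466-1476493 (plus strand) and chr4:1318975-1319002 (minus strand), in the order shown. Upstream of the window, exon bases 1936 to 1944 of RR3 read CCCACATCG, the core of the upstream sequence element known from plant genes of small nuclear RNA and of 7SL RNA. Of the 9 loci similar to the stretch, 7 hold the same letters on the matching strand, within the aligned stretch or the 80 bases on either side. The 5 shown are among them. No match was found at 2 loci on chromosome 5. At the locus of AT5G09700 the alignment begins at RR3 exon base 2098, so the place of the motif lay outside the bases searched. In the last 466 bases of the exon models of 25725 protein-coding genes, 0.047% held the letters on the sense strand and 0.144% on either strand. None of the other 9 type-A ARR genes held them anywhere in its exons on either strand. The 9 loci were found by likeness to a stretch that itself holds the letters, so their count cannot be set against these percentages. A match of letters does not show that a factor binds there.

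**Figure D1:**
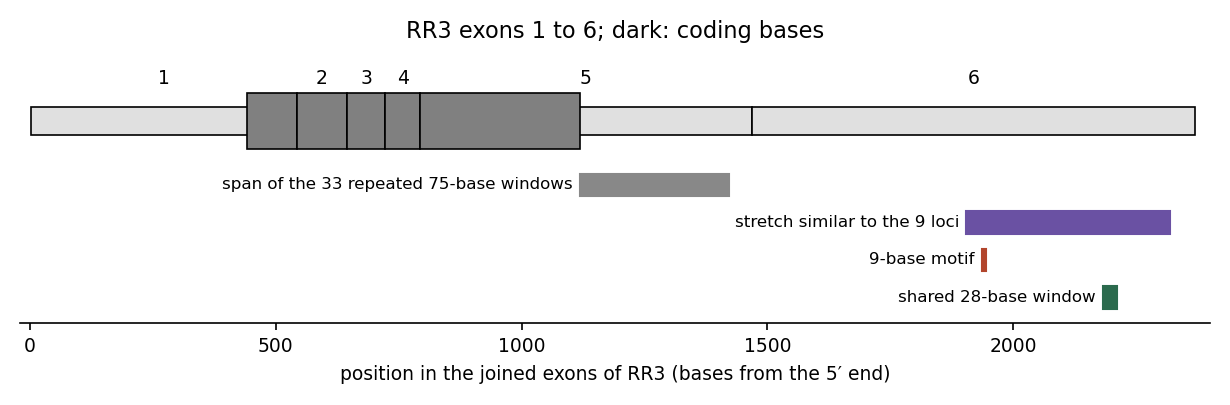
The joined exons of RR3, numbered 1 to 6, against the distance in bases from the 5′ end, with the coding bases dark. Lines below mark the span of the 33 windows of 75 bases that occur elsewhere in the genome, the stretch at exon bases 1905 to 2318 that is similar to 9 other loci, the 9-base motif and the shared 28-base window, the last 3 all in exon 6.

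RR3 was by far the most abundant member in both kinds of immunoprecipitate. Its level was 1105 and 1909 FPKM (reads per kilobase of exon and 1000000 reads of the library) in the RIP libraries, 84174 and 34437 FPKM in the Mock libraries, and 11.88 and 11.95 FPKM in the Input libraries. The 3 groups did not overlap, with Mock highest, RIP between and Input lowest. The group means were 1507 ± 568 FPKM in RIP, 59305 ± 35169 FPKM in Mock and 11.9 ± 0.0532 FPKM in Input (SD, n = 2 each). The mean was 126-fold the Input mean in RIP and 4977-fold the Input mean in Mock.

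As a share of all reads, RR3 took 0.262% (95% exact binomial interval 0.254 to 0.270%) and 0.452% (0.439 to 0.466%) of the RIP libraries. In the Mock libraries it took 19.9% (19.8 to 20.1%) and 8.16% (8.03 to 8.30%). In the Input libraries the share was 0.00282% (0.00262 to 0.00302%) and 0.00283% (0.00263 to 0.00305%). The 2 Mock libraries differed from each other far beyond these intervals, so their spread was larger than counting error. Among 32674 nuclear genes RR3 ranked 15 and 10 in RIP, 1 and 2 in Mock, and 7382 and 7375 in Input. The gene above it in Mock 2 was GRF8 (AT4G24150), a growth-regulating transcription factor, with 8.56% of the reads. In the count of all family reads, RR3 made up 97.8 and 98.9% in RIP, 100% and 99.9% in Mock, and 17.7 and 17.6% in Input.

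The family was chosen on its Mock values and not on RIP against Input. RIP is an immunoprecipitate too, though, and earlier results were known, so this contrast is not independent of that choice. RR3 was higher in RIP than in Input. Its log2 fold change was 6.81 ± 0.55 (SE) on the log2(FPKM + 1) scale, and limma gave an adjusted p of 0.00243 (Benjamini-Hochberg, 19997 features tested). Both RIP libraries lay above both Input libraries. Over all features tested, 1.48% were higher in RIP by the same rule (log2 fold change above 2 and adjusted p under 0.01), 5.78% were lower, and 22.7% had both RIP libraries above both Input libraries. Over all features tested, the median was -0.52 on the log2 scale. In a fit without the Mock libraries the adjusted p of RR3 was 0.00246. The call was lost when every feature was tested without a filter (limma adjusted p = 0.0314). It was lost when voom, a method for counts, was run on the recovered reads (adjusted p = 0.487). It was also lost with the replicate number as a block in the model (limma adjusted p = 0.0142), and without Input 1 or Input 2. The fold change of RR3 stayed between 6.42 and 8.53 on the log2 scale under all 16 alternatives run.

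As a description, the log2 difference of RR3 between Mock and Input was 12.03, and that between RIP and Mock was -5.21. Of all features tested, 0.715% were higher in Mock than in Input by the rule used for RIP against Input. Between RIP and Mock, 0.180% were lower in RIP (log2 fold change of at least 1 in size and adjusted p under 0.01). Both Mock libraries lay above every other library for 1.04% of all features. RR3 thus made up a larger share of the HA immunoprecipitate than of Input, and a smaller share than of the IgG control. All these levels are scaled to the reads of each library, so they do not give amounts of RNA. The paper reports no detectable RNA in its mock eluate. Whether IgG recovered more or less RR3 RNA than anti-HA was therefore not tested.

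**Figure D2:**
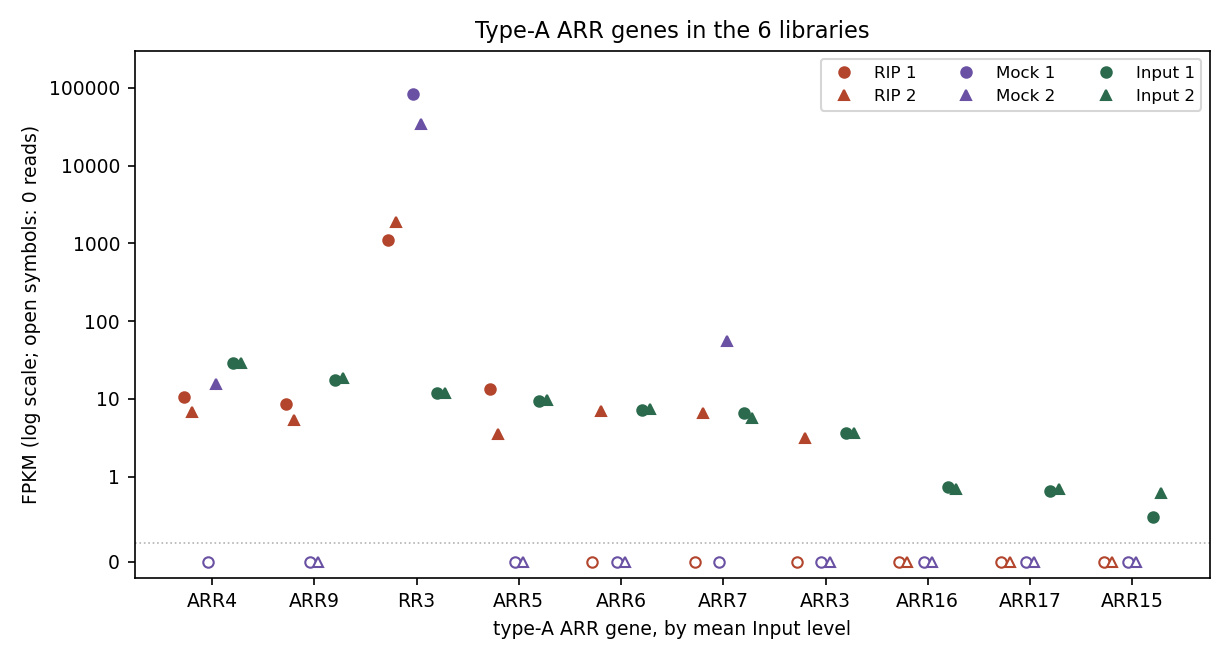
FPKM of the 10 type-A ARR genes on a log scale, ordered by their mean Input level, with 1 symbol for each library (RIP, Mock and Input from left to right, circles for replicate 1 and triangles for replicate 2, open symbols for 0 reads). RR3 reached 84174 and 34437 FPKM in Mock, while the other 9 genes stayed at or below 55.0 FPKM in every library.

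Genes near RR3 on the chromosome did not share its levels. AT2G09250, a long non-coding RNA inside exon 6 on the opposite strand (chr2:17224503-17224801), had 0 reads in all RIP and Mock libraries and 1 and 0 reads in Input. AT2G41312, the non-coding RNA that follows on the same strand, had 0 reads in all RIP and Mock libraries and 117 and 116 in Input. SSL1 upstream had 0 reads in all RIP and Mock libraries and 74 and 60 in Input. AT2G41330 downstream had 14 and 6 reads in RIP, 0 in both Mock libraries and 97 in each Input library. High counts were seen for RR3 and for none of these 4 neighbours.

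Little of RR3 had an exact copy elsewhere in the genome. Of the 1929 windows of 75 bases, the read length, that fit inside the exons of RR3, 33 (1.71%) occurred elsewhere in the genome. They lay between exon bases 1118 and 1421, and none touched the stretch in exon 6. The other 9 members had no repeated window. Longer parts of RR3 before exon 6 aligned with other loci without being exact throughout. Exon bases 791 to 1118 matched AT2G07440 at 92.4% identity, and exon bases 1104 to 1400 matched AT2G11620 at 94.3%. The table gives 1 value per gene, so where along RR3 its reads lay was not tested.

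Of the 5 genes whose pattern over the 6 libraries was most like that of RR3, 3 hold its exon 6 stretch. Outside the family, 84 features had at least 100 reads in each Mock library. They were ranked by the root-mean-square difference from RR3 in log2(FPKM + 1), each gene centred on its mean over the 6 libraries. The 5 nearest were AT2G31141 (0.477), AT4G04595 (0.493), AT4G04565 (0.702), AT2G16586 (0.848) and AT2G35750 (0.867). The first 3 of these 5 carry the stretch on their own strand, as did 4 of the 84 features in all. Both the limit of 100 reads and the ranking used the Mock levels on which the family was chosen, so these counts are a description and carry no test. AT1G49700, which also carries the stretch, had 39 and 59 reads in Mock and so was not ranked.

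AT2G31141, annotated as an uncharacterized protein, had 505 and 719 FPKM in RIP, 15818 and 10488 FPKM in Mock, and 1.57 and 1.94 FPKM in Input. AT4G04595, a transcribed region with no named product, had 671 and 734 FPKM in RIP, 16164 and 13711 FPKM in Mock, and 3.27 and 3.13 FPKM in Input. AT4G04565, a long non-coding RNA, had 480 and 338 FPKM in RIP, 11408 and 7121 FPKM in Mock, and 0.568 and 0.232 FPKM in Input. The order of the groups in these 3 genes was that of RR3, and the groups did not overlap.

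AT2G16586 and AT2G35750, both annotated as uncharacterized proteins, showed the same order without a match to the stretch. AT2G16586 had 1246 and 1337 FPKM in RIP, 16293 and 9911 FPKM in Mock, and 4.04 and 3.03 FPKM in Input. AT2G35750 had 2121 and 2172 FPKM in RIP, 28760 and 16056 FPKM in Mock, and 13.1 and 15.8 FPKM in Input. Likeness to RR3 was therefore not limited to genes with the stretch.

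AT1G05163, a long non-coding RNA with the stretch, ranked 20 among the 84 in likeness but 2 and 3 in abundance in the Mock libraries. It took 0.381 and 0.334% of the reads in RIP, 11.9 and 6.25% in Mock, and 0.000167 and 0.000119% in Input. AT1G49700, whose match of 81.1% identity was the closest, stayed low, with 49 and 17 reads in RIP, 39 and 59 in Mock, and 84 and 95 in Input. The 3 gene models that have the stretch on their opposite strand had 0 reads in all RIP and Mock libraries. Their Input reads were few: 5 and 1 for AT7SL-1, 49 and 44 for BXL3, and 2 and 4 for AT5G09700. AT7SL-1 is annotated here as a protein-coding model on the plus strand, while its match lies on the minus strand. Reads were counted by strand, so RNA of the matching strand would not be counted in these 3 models. Whether 7SL RNA was in the immunoprecipitates was therefore not tested. Together, RR3 and the 5 genes with the stretch on their own strand took 0.736 and 0.888% of the reads in RIP, 34.3 and 16.2% in Mock, and 0.00358 and 0.00362% in Input. Most of this Mock share came from AT1G05163 and from RR3 itself, which led to the choice of the family, so the sum carries no test. GRF8, which has no match to the stretch, alone took 7.31 and 8.56% of the Mock reads. Whether the stretch has a part in the level of any of these genes was not tested.

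**Figure D3:**
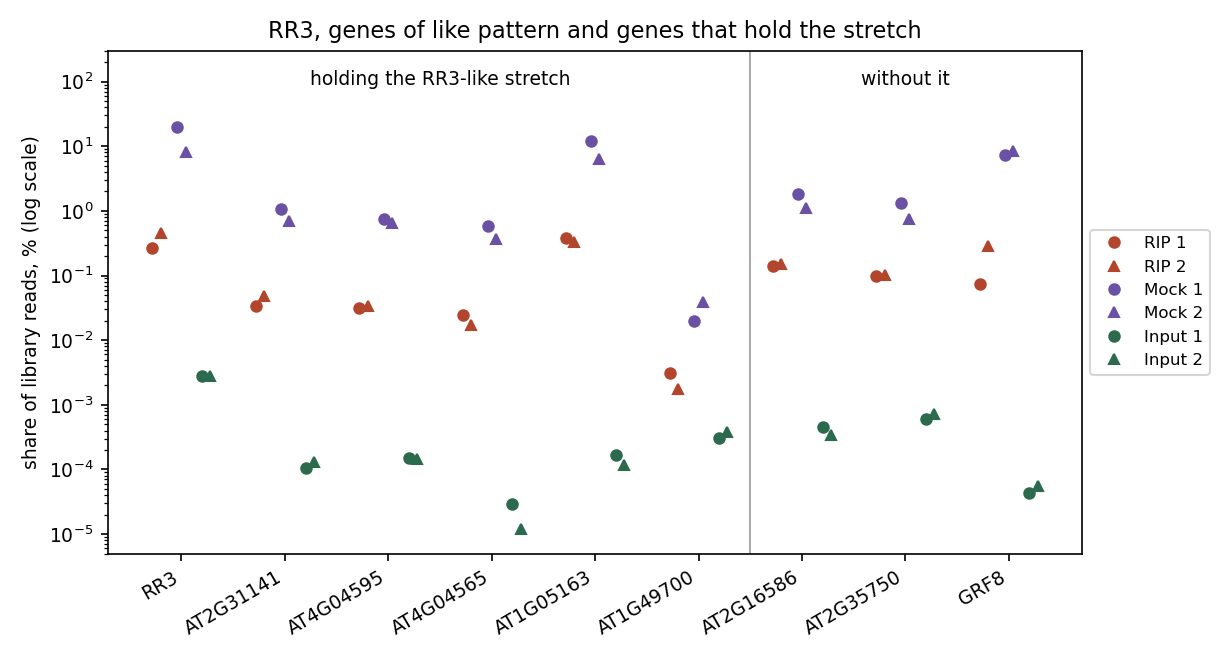
Share of library reads in percent, on a log scale, for RR3, 5 genes that hold the stretch on their own strand and 3 genes without it, with 1 symbol for each library (RIP, Mock and Input from left to right). RR3, AT1G05163 and GRF8 each took over 6% of the reads of both Mock libraries, and AT1G49700 took under 0.04% of each.

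The other 9 members were of low to moderate level in Input. Ordered by mean Input level per length, the family ran from ARR4 (28.8 ± 0.25 FPKM) over ARR9 (17.9 ± 0.641), RR3 (11.9 ± 0.0532), ARR5 (9.54 ± 0.364), ARR6 (7.38 ± 0.145), ARR7 (6.07 ± 0.633) and ARR3 (3.63 ± 0.032) to ARR16 (0.711 ± 0.0352), ARR17 (0.676 ± 0.0402) and ARR15 (0.463 ± 0.226) (SD, n = 2 each). Of the 9 neighbouring pairs in this order, 8 did not overlap between their libraries, and ARR16 and ARR17 did overlap. The highest mean was 62.3-fold the lowest. In RNA of whole plantlets, few cells with much of an RNA and many cells with little of it cannot be told apart.

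Depth decided which members could be followed into the immunoprecipitates. At their Input share, the other 9 members together would have given 340 reads in the 2 RIP libraries and 46.4 reads in the 2 Mock libraries. They gave 142 reads in RIP and 13 reads in Mock, or 0.418 and 0.280 of those numbers. For RR3 the same reckoning gave 72.7 reads in RIP, where 8610 were counted, and 9.94 reads in Mock, where 52065 were counted. The 13 genes over 1% of any library, RR3 among them, took 14.6 and 22.7% of the RIP reads and 56.7 and 39.2% of the Mock reads. In Input they took 2.74 and 2.64%, so a smaller share was left to all other genes in RIP and Mock. Of all features tested, 50.2% had both RIP libraries below both Input libraries, and 67.3% had 0 reads in both Mock libraries. A shortfall particular to the 9 members was not tested.

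**Figure D4:**
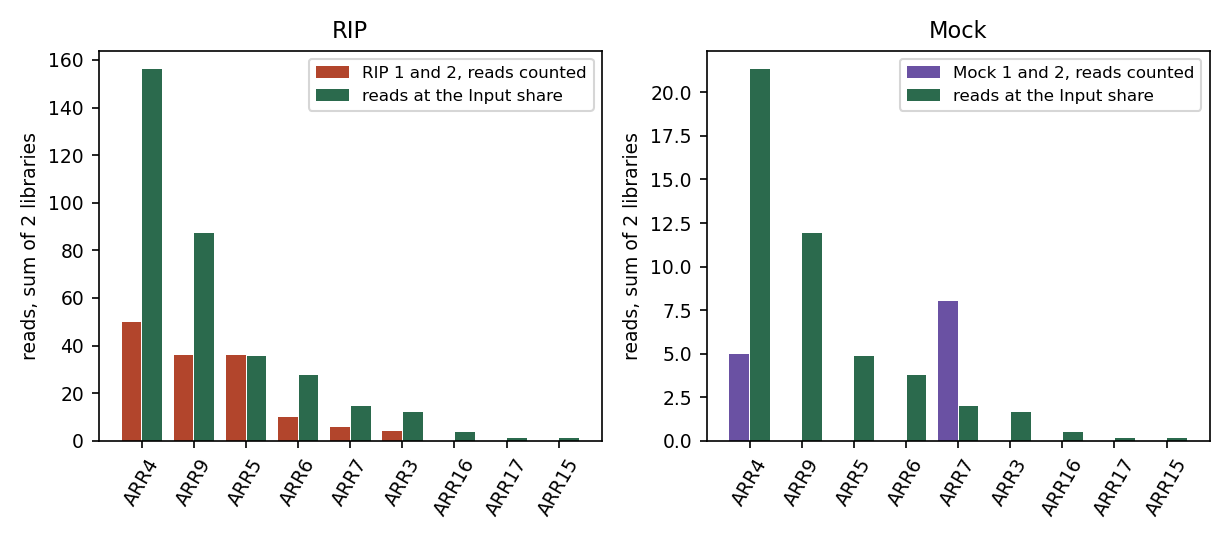
Reads of the 9 type-A ARR genes other than RR3, summed over both RIP libraries (left) and both Mock libraries (right), beside the reads each would have had at its Input share. Totals were 142 against 340 reads in RIP and 13 against 46.4 reads in Mock, and ARR7 in Mock was above its Input share, with 8 against 2.02 reads.

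ARR4 (AT1G10470), the most abundant member in Input and a regulator known to interact with the light receptor phytochrome B, had 36 and 14 reads in RIP, 0 and 5 in Mock, and 1675 and 1521 in Input. Its level was 10.7 and 6.83 FPKM in RIP and 29.0 and 28.7 FPKM in Input, a log2 fold change of -1.64 ± 1.46 (SE, limma adjusted p = 0.55). The Mock libraries, at 0 and 15.5 FPKM, share the estimate of spread behind this SE. With only RIP and Input in the fit the fold change was the same and the limma adjusted p was 0.0301, past neither threshold. Both RIP libraries were below both Input libraries, as they were for 50.2% of all features.

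ARR9 (AT3G57040), the closest relative of RR3 in the family, had 26 and 10 reads in RIP, 0 in both Mock libraries, and 909 and 879 in Input. Its log2 fold change between RIP and Input was -1.27 ± 0.26 (SE, limma adjusted p = 0.0384), past neither threshold. With its 0 reads set at the floor of 3 reads per library, ARR9 was at least 1.96-fold lower in Mock than in Input. The pair RR3 and ARR9 thus had Input levels of the same order, and only RR3 was abundant in the immunoprecipitates.

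In ARR5, ARR6, ARR7 and ARR3 the 2 RIP libraries disagreed. ARR5 (AT3G48100), a quick responder to cytokinin often used as its reporter, had 31 and 5 reads in RIP, 0 in Mock, and 370 and 359 in Input (log2 fold change between RIP and Input -0.39 ± 0.61, SE, limma adjusted p = 0.774). ARR6 (AT5G62920), the closest relative of ARR5, had 0 and 10 reads in RIP, 0 in Mock, and 292 and 276 in Input. ARR7 (AT1G19050), which like ARR15 is known to be repressed by the stem cell regulator WUSCHEL, had 0 and 6 reads in RIP, 0 and 8 in Mock, and 169 and 134 in Input. ARR3 (AT1G59940), the closest relative of ARR4, had 0 and 4 reads in RIP, 0 in Mock, and 130 and 121 in Input. In 3 of these 4 genes all RIP reads came from RIP 2, and ARR6, ARR7 and ARR3 had adjusted p of 0.416, 0.794 and 0.363 (limma). Without RIP 2 the RIP group was 1 library, assumed to vary like the other groups, and limma then called ARR3 and ARR6 lower on the 0 reads of RIP 1, while ARR5 turned to a log2 fold change of 0.45. Without RIP 1, ARR7 turned to 0.090.

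ARR16, ARR17 and ARR15 had 0 reads in all RIP and Mock libraries and were not tested, since they did not reach 1 FPKM in 2 libraries. ARR16 (AT2G40670) had 42 and 36 reads in Input, its closest relative ARR17 (AT3G56380) had 11 in each Input library, and ARR15 (AT1G74890) had 9 and 17. At their Input shares the RIP libraries together would have held 1.07 reads of ARR17 and 1.27 of ARR15, so a lower level of these genes was not detectable at this depth. For ARR16 the same sum was 3.81 reads, close to the 3 reads that a count of 0 allows.

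In all, 1 of the 7 tested members was higher in RIP than in Input and 0 were lower by limma, and voom called 0 in either direction. At an unadjusted p under 0.05, 1 of the 7 was lower, where 25.0% of all features were. The median log2 fold change of the 6 tested members other than RR3 was -1.32, with a range of -1.64 to -0.39, beside the median of -0.52 over all features. In Mock, 7 of the 10 members had 0 reads in both libraries, of which 4 belong to the 7 tested, where 67.3% of all features tested had none.

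Of 47 other genes of cytokinin metabolism and signalling, 31 were tested in RIP against Input, 0 were higher and 3 were lower (limma), with a median log2 fold change of -0.77. Over all features 1.48% were higher and 5.78% lower, so these counts lay near the background. The voom fit called 0 of them. In Mock, 27 of the 31 tested genes (87.1%) had 0 reads in both libraries, where 67.3% of all features tested had none.

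The 3 histidine kinase receptors were all tested and none passed. AHK3, the most abundant of them, had 48.6 and 37.9 FPKM in RIP, 0 and 20.1 FPKM in Mock, and 30.1 and 30.3 FPKM in Input. None of the 6 phosphotransfer proteins was higher, and 2 were lower in RIP. AHP1 had 0 reads in RIP and in Mock, and 526 and 456 in Input, so that it was at least 7.52-fold lower in RIP at the floor of 3 reads per library (limma adjusted p = 8.74e-05). Values of 0 in every RIP and Mock library have no spread, so this p does not measure replicate spread in RIP (voom adjusted p = 0.0665). AHP5 had 0 and 1 read in RIP, 0 in Mock, and 730 and 685 in Input (log2 fold change -3.99 ± 0.31, SE, adjusted p = 0.00208). AHP2, the most abundant, had 10.05 and 2.19 FPKM in RIP, 0 in Mock, and 40.7 and 45.3 FPKM in Input, and did not pass. All 6 had negative log2 fold changes and 0 reads in Mock.

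Of the 11 type-B ARRs, the transcription factors above the type-A genes, 6 were tested and none passed. ARR10, the most abundant of them in Input, had 10.08 and 8.95 FPKM in RIP, 0 in Mock, and 20.8 and 18.9 FPKM in Input. ARR1, whose Input levels of 19.2 and 19.3 FPKM overlapped those of ARR10, had 48.0 and 22.55 FPKM in RIP and 55.7 and 13.5 FPKM in Mock, and is named after its values were seen. The 2 type-C ARRs had 0 reads in all 6 libraries. Among 11 genes of cytokinin synthesis, 4 were tested and 1 was lower in RIP. This was IPT3, an isopentenyltransferase, with 0 reads in RIP and Mock and 159 and 124 in Input, at least 2.16-fold lower in RIP at the floor (limma adjusted p = 0.000218). As for AHP1, this p rests on values of 0 without spread (voom adjusted p = 0.367). IPT9, which acts on transfer RNA and was the most abundant of this group, had 17.8 and 16.0 FPKM in RIP, 0 and 6.98 FPKM in Mock, and 9.71 and 10.2 FPKM in Input.

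Of the 7 LOG enzymes, which release the active hormone, all were tested and none passed, and LOG7, the most abundant, had 6 and 0 reads in RIP, 0 in Mock, and 703 and 622 in Input. Of the 7 cytokinin oxidases, which break the hormone down, 5 were tested and none passed. CKX7, the most abundant, had 14.2 and 7.94 FPKM in RIP, 0 in Mock, and 6.86 and 7.17 FPKM in Input. The calls of AHP1, AHP5 and IPT3 each fell away under some alternatives, such as a pseudocount of 5 for AHP1 (log2 fold change -1.84) and leaving out Input 1 for IPT3 (-1.98). AHP5 missed the threshold without Mock 1, Mock 2, Input 1 or Input 2 (limma adjusted p = 0.0101, 0.0102, 0.0354 and 0.036), and the count of 3 pathway genes called became 9 without RIP 1, 6 without RIP 2 and 1 without Input 1.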

How the data were processed

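The members and gene lists were chosen with earlier results of these data known. Total RNA was depleted of ribosomal RNA and sequenced by strand as single-end reads of 75 bp, and the authors name STAR for alignment and summarizeOverlaps for counting. The labels name the build TAIR10, and versions of the tools are not given in the sources used here. GEO calls the deposited table counts. The authors had scaled its values to FPKM, 1 column per library. Multiplied by the merged exon length (RefSeq, TAIR10.1), 99.1 to 99.4% of the values above 0 were whole multiples of 1 step (tolerance 0.05 reads), which gave reads and CPM. All 32674 nuclear identifiers matched RefSeq. No column was left unmapped.

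The 19997 features that reached 1 FPKM in 2 or more libraries were fitted with limma 3.58.1 (R 4.3.3) on log2(FPKM + 1) over all 6 libraries, with the trend option and p-values adjusted after Benjamini and Hochberg. This scale understates the change of low genes. Members are named in full. Pathway genes are named where they passed RIP against Input or had the highest mean Input level of their role, and further genes are named as the 5 most like RR3, as ranking above RR3 in Mock, or, chosen after their values were seen, as holding its stretch or lying beside it. Sequence was searched with blastn 2.17.0 (word size 11), and scipy 1.17.1 gave exact (Clopper-Pearson) intervals of shares. An exact test of 2 libraries against 2 cannot reach p = 0.05, so single values carry no test beyond limma. Alternatives covered the pseudocount, the filter, the libraries in the fit, the scaling, a replicate block, voom and each library left out. Quantile normalization was added after seeing the data. No protein or promoter sequence was used here.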

Additional observations from a re-analysis of the deposited data

How the results depend on the processing

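The fold change of RR3 between RIP and Input kept its direction under all 16 alternatives, from 6.42 to 8.53 on the log2 scale, with adjusted p from 0.00239 to 0.487 (limma). It missed the threshold without a filter (6.81), with voom on the recovered reads (6.81), with the replicate block (6.81, adjusted p = 0.0142) and without Input 1 or Input 2. These 5 alternatives gave 0 called members. Same-numbered libraries deviated together with correlations of 0.00846 (RIP and Input), -0.00166 (Mock and Input) and 0.0122 (RIP and Mock), so the numbers did not pair them, and no other member changed its call with the block. Leaving out 1 library gave 0 to 3 called members and 6.42 to 7.21 for RR3. ARR5 ranged from -1.22 to 0.45, reversed without RIP 2, and ARR7 from -2.82 to 0.09015, reversed without RIP 1. Of the pathway genes, 3 were called, against 5 with a pseudocount of 0.1, 1 with a pseudocount of 5, 0 with the stricter filter, 0 with voom, 1 with quantile normalization and 1 to 9 with 1 library left out. Over all features, 296 were higher, against 153 with a pseudocount of 5, 114 with the stricter filter, 152 with the replicate block, 39 with voom and 56 to 599 with 1 library left out. Lower features numbered 1155, against 1972 and 311 with pseudocounts of 0.1 and 5, 95 with the stricter filter, 6 with voom, 298 with quantile normalization and 890 to 2575 with 1 library left out. The cause of these changes was not tested. The log2 difference of RR3 between Mock and Input was 12.95 after rescaling without features over 1% of a library, against 12.03, and stayed between 11.38 and 12.67 with 1 library left out. That between RIP and Mock was -3.04 with quantile normalization, against -5.21. The Input share of RR3 was 0.00285% of protein-coding reads and 0.0029% without the other features over 1%, against 0.00282%. The Mock share ranged from 8.16 to 21.7% and the RIP share from 0.262 to 0.464%. The order of Input levels had 8 separate pairs under median-of-ratios scaling too, and gave no value with 1 Input library. Depth limits what can be said of members other than RR3 in Mock, where only ARR4 and ARR9 had Input levels above the floor.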
